A study of Mus musculus with 9 samples.

Results

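DNA damage signalling and repair genes were followed in the irradiated sublingual gland as a set of 33 genes, chosen by name from the known repair pathways. All 33 were found among the 54532 genes of the count tables, and 32 passed a filter on low counts that left 15348 genes to test. Fanci was the member that the filter removed. The set holds damage kinases, break sensors, and genes of homologous recombination, the Fanconi pathway, end joining, single-strand break repair, mismatch repair, excision repair and translesion synthesis.

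The sublingual gland is a mucous salivary gland under the tongue, and the series concerns salivary glands damaged by radiation. RNA was taken from gland sections of wild-type (WT) mice in 3 groups of 3 libraries: glands without radiation (control), glands 7 days after 10 Gy and glands 14 days after 10 Gy. The labels give no age, sex or strain, and do not state that replicates are separate animals. The p-values therefore speak of variation among these libraries, part of which may be technical. In bulk tissue, fewer cells of a type and less RNA per cell cannot be told apart.

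Ionising radiation breaks both strands of DNA. The kinases ATM and ATR mark such damage and pass the signal to CHK1, CHK2 and p53, which halt the cell cycle. Breaks are then joined end to end in any phase of the cycle, or copied from the sister chromatid by homologous recombination, which is used after DNA replication. Much of this response acts through modification of proteins already present, and many genes of recombination and of the Fanconi pathway are transcribed mainly in cells that replicate their DNA, under E2F factors.

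Because E2F sites connect several repair genes with the cell cycle, the promoters were searched for them, and the stretches that hold a site are shown here. RefSeq promoters (GRCm38.p6, 250 bases before to 50 after a gene's start) were at hand for 25 of the 33 members. The letters searched were TTTGGCGC, TTTCGCGC, TTTCCCGC and TTTGCCGC, on both strands. A site was found in 6 of the 25 members (24%) and in 704 of 27025 genes of the whole table (2.605%), where a gene counts if any of its listed promoters holds one. Each window below has 60 bases, reads 5′ to 3′ along the gene's strand, and carries the site in capitals. In Msh3 the capitals hold 2 sites that overlap.
Brca2, chr5:150522427-150522486, plus strand: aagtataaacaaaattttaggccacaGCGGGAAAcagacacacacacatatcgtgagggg
Chek2, chr5:110839805-110839864, plus strand: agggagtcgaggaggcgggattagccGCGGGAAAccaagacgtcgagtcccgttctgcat
Mdc1, chr17:35841456-35841515, plus strand: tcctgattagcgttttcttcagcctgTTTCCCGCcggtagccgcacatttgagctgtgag
Msh3, chr13:92355172-92355231, minus strand: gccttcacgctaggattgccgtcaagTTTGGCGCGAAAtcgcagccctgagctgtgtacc
Msh6, chr17:87975039-87975098, plus strand: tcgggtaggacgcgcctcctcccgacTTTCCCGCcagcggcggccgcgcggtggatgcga
Xrcc6, chr15:82016297-82016356, plus strand: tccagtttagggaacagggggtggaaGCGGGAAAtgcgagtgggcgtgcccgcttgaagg
A match describes these letters and is not evidence of binding. Among the recombination and Fanconi genes with a promoter at hand, only Brca2 held a site. Blm, Brca1, Fanca, Fanci, Palb2, Rad51ap1 and Rad54l had none, nor had Chek1. Of the 6 genes with a site, Mdc1 and Msh6 rose at day 7, and Brca2, Chek2, Msh3 and Xrcc6 did not pass. The CCAAT box, read as CCAAT on either strand, was in 14 of 25 members (56%) and in 41.1% of genes. The cell cycle homology region, read as TTTGAA, was in 1 member, Ercc5 (4%), and in 20.2% of genes.

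Levels are TMM-scaled CPM, that is counts scaled to a common library total, and changes are log2 fold changes from edgeR's quasi-likelihood test with their standard error (SE). Values of a group follow the library numbers 1, 2 and 3. A gene rose or fell where its Benjamini-Hochberg adjusted p over all genes tested was under 0.05. Because fold changes moved with gene length, calls that a correction for length and GC content ended are given with the corrected log2. Total counts ran from 15962399 to 19441239 per library, so that 3 counts stood for 0.154 to 0.188 CPM before TMM scaling, which shifts these values. Among members, 26 of 33 had at least 10 counts in every control. Per kilobase of exon, H2afx (10.7 CPM), Parp1 (10.5), Nbn (7.995), Xrcc1 (6.19) and Rad50 (5.51) had the highest control levels. Exo1, Fancd2 and Fanci had the lowest, at 0.059, 0.061 and 0.007 CPM per kilobase.

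At day 7 against control, 10 of the 33 members rose and none fell, with 22 not past the threshold and Fanci not tested. The 10 were Atm, Atr, Mdc1, Trp53bp1, Palb2, Rad54l, Fancd2, Msh6, Polk and Polh. Of all genes tested, 15.8% rose and 14.8% fell. No member was lower at an unadjusted p under 0.05, nor with DESeq2 or limma-voom, and with both of these 11 were higher. For 18 members every day 7 library lay above every control, as did 22.2% of genes tested. Of the 32 members tested, 29 had a positive log2 change, with a median of 0.43 where that of all genes was 0.02. After the length and GC correction the changes of Brca2, Ercc5, Msh3, Prkdc and Rad50 turned negative and that of Ercc1 positive. The range of the count was 6 to 12 when each library was left out in turn, with 6 without day 7 library 2. The heat map shows the set library by library.

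**Figure D1:**
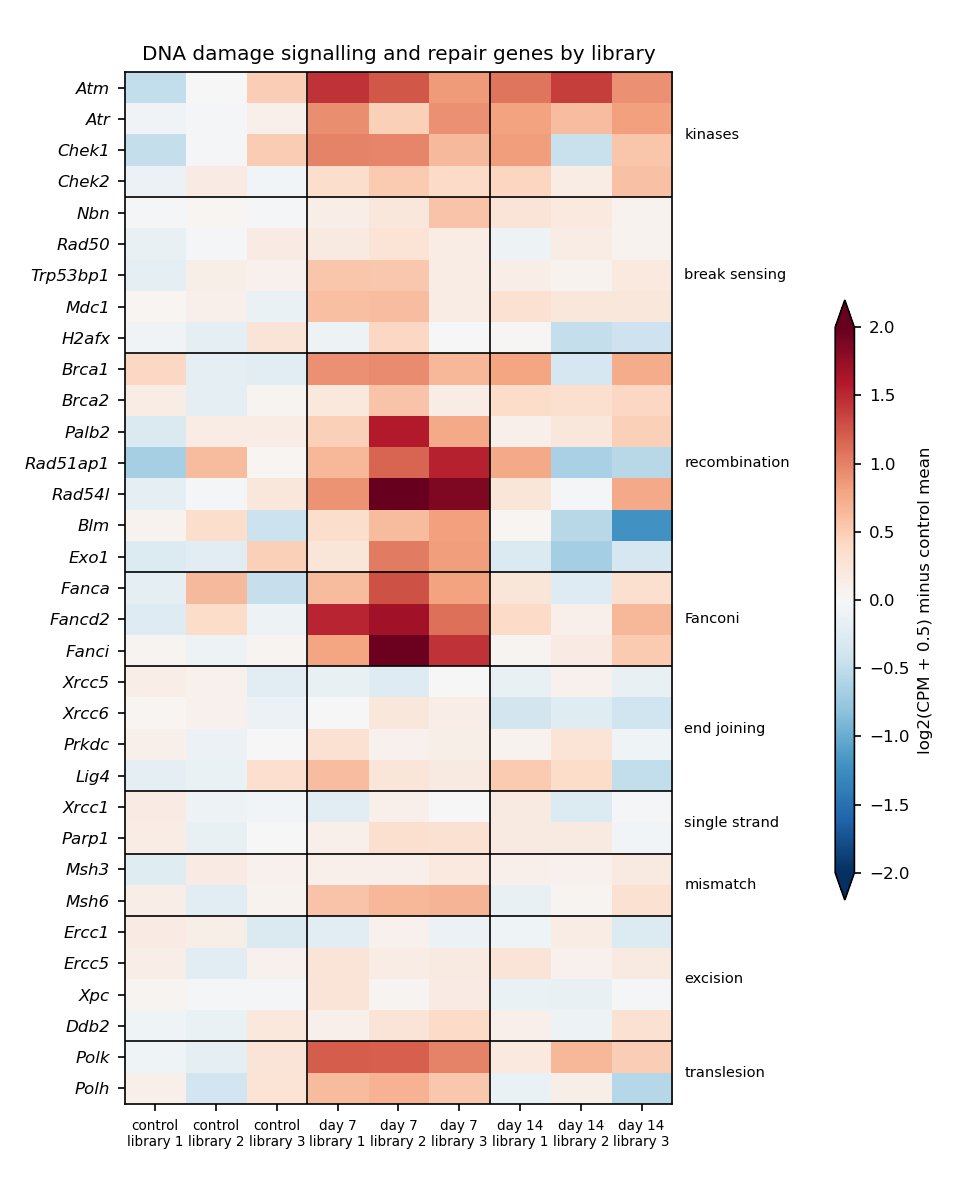
Heat map of the 33 members (rows, ordered by role) in the 9 libraries (columns). Colour is log2(CPM + 0.5) minus the mean of the 3 controls, red for higher and blue for lower. Day 7 columns are mostly red, with the deepest colour in Rad54l, Fancd2 and Fanci, and Atm and Atr are red in all 6 irradiated libraries.

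Of the damage kinases, Atm and Atr rose at both times. Atm, the kinase that responds to broken ends (ENSMUSG00000034218, chromosome 9, 53439149 to 53536740, minus strand), had 5.604, 8.09 and 11.6 CPM in controls, 22.8, 19.8 and 15.0 CPM at day 7 and 17.6, 22.0 and 15.7 CPM at day 14. Every irradiated library lay above every control. At day 7 Atm rose 2.27-fold (log2 1.18, SE 0.230, edgeR adjusted p = 0.0014), a call kept in all 9 fits that left out a library. Atr, the kinase of stalled replication forks (ENSMUSG00000032409, chromosome 9, 95857597 to 95951781, plus strand), had 6.82, 6.94 and 7.74 CPM in controls, 14.0, 10.2 and 13.9 CPM at day 7 and 12.9, 11.3 and 12.99 CPM at day 14. Again no irradiated library reached down to the controls. At day 7 Atr rose 1.77-fold (log2 0.82, SE 0.174, edgeR adjusted p = 0.0016), also in all 9 such fits. The length and GC correction ended this call and took the change to 0.23 (edgeR adjusted p = 0.378).

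Of the checkpoint kinases downstream, neither passed at day 7. Chek2, which encodes CHK2, the kinase that ATM activates, had 7.13, 8.69 and 7.46 CPM in controls, 9.98, 11.4 and 10.3 CPM at day 7 and 10.6, 8.65 and 11.9 CPM at day 14. Its day 7 libraries were all above the controls, and day 14 library 2 fell among them. The change was 0.44 at day 7 (SE 0.177, edgeR adjusted p = 0.0658) and 0.42 at day 14 (SE 0.178, edgeR adjusted p = 0.184). Chek1, which encodes CHK1, the kinase that ATR activates, changed by 1.05 (SE 0.462, edgeR adjusted p = 0.0918), with day 7 libraries at 2.04 to 2.71 CPM and controls at 0.670 to 1.81 CPM.

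Among the 5 genes of break sensing and chromatin, 2 rose at day 7, Mdc1 and Trp53bp1. Mdc1, a scaffold that binds phosphorylated H2AX (ENSMUSG00000061607, chromosome 17, 35841515 to 35859670, plus strand), had 23.4, 24.5 and 20.8 CPM in controls, 34.8, 35.2 and 25.2 CPM at day 7 and 28.2, 26.7 and 26.8 CPM at day 14. Day 7 library 3 was close to the controls and the others clearly above them. The rise was 1.39-fold (log2 0.47, SE 0.135, edgeR adjusted p = 0.0123) and was lost without day 7 library 1 or 2 (log2 0.39 to 0.61 over all omissions, highest adjusted p = 0.0726). The correction ended the call (corrected log2 0.27, edgeR adjusted p = 0.146). Trp53bp1, which encodes 53BP1, a protein that steers breaks towards end joining (ENSMUSG00000043909, chromosome 2, 121193281 to 121271407, minus strand), had 23.0, 28.6 and 28.2 CPM in controls, 39.0, 38.5 and 29.5 CPM at day 7 and 29.2, 27.9 and 30.3 CPM at day 14. As with Mdc1, day 7 library 3 lay just above the highest control. Trp53bp1 rose 1.34-fold (log2 0.42, SE 0.130, edgeR adjusted p = 0.0189), which did not pass when control library 1, day 7 library 1 or day 7 library 2 was left out (log2 0.32 to 0.54, highest adjusted p = 0.0973). The correction took the change to 0.07 (edgeR adjusted p = 0.707).

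H2afx, the histone variant whose phosphorylated form marks breaks, did not pass in any comparison. Its libraries overlapped, with 14.0, 12.9 and 17.6 CPM in controls, 13.7, 19.8 and 14.8 CPM at day 7 and 15.0, 10.5 and 10.9 CPM at day 14. The change was 0.12 at day 7 (SE 0.182, edgeR adjusted p = 0.673). After the length and GC correction it was 0.44 (SE 0.167, edgeR adjusted p = 0.0625), still not past the threshold. Nbn and Rad50, subunits of the complex that first holds broken ends, changed by 0.33 (SE 0.135, edgeR adjusted p = 0.0703) and 0.20 (SE 0.119, edgeR adjusted p = 0.205) at day 7.

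Homologous recombination held the largest rise among the 32 members tested, that of Rad54l. Of its 7 members 2 rose at day 7, Rad54l and Palb2, and the median of the 7 was 1.15. Rad54l, which encodes RAD54, a motor protein of strand exchange (ENSMUSG00000028702, chromosome 4, 116094264 to 116123690, minus strand), had 0.426, 0.539 and 0.734 CPM in controls, 1.46, 4.34 and 3.38 CPM at day 7 and 0.759, 0.531 and 1.30 CPM at day 14. The day 7 values spread widely and all exceeded the controls. Rad54l rose 5.32-fold (log2 2.41, SE 0.506, edgeR adjusted p = 0.0016), in all 9 fits with a library left out. The gene was low, with 28 counts over the 3 controls and 169 over the 3 day 7 libraries.

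Palb2, which links BRCA1 to BRCA2 (ENSMUSG00000044702, chromosome 7, 122107262 to 122132985, minus strand), had 0.365, 0.674 and 0.678 CPM in controls, 0.976, 2.69 and 1.29 CPM at day 7 and 0.642, 0.743 and 0.974 CPM at day 14. Day 7 library 2 stood well above the other libraries. The rise of 2.86-fold (log2 1.52, SE 0.532, edgeR adjusted p = 0.0367) did not pass when any 1 control, day 7 library 2 or day 7 library 3 was omitted (log2 0.98 to 1.78, highest adjusted p = 0.280). It also did not pass with limma-voom or after the correction (corrected log2 1.27, edgeR adjusted p = 0.0962). Brca1, which helps resect broken ends, just missed the threshold with 2.497, 1.48 and 1.41 CPM in controls and 3.74, 3.84 and 3.06 CPM at day 7 (log2 0.98, SE 0.372, edgeR adjusted p = 0.0524), and DESeq2 and limma-voom called it higher.

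The other recombination genes did not pass at day 7 in edgeR, DESeq2 or limma-voom. Brca2, a central gene of recombination, changed by 0.39 (SE 0.317). Rad51ap1, which promotes strand exchange, changed by 1.43 (SE 0.588), and all its day 7 libraries lay above the controls. With no filter on low counts it passed (edgeR adjusted p = 0.0201). Blm, a helicase that takes apart recombination intermediates, changed by 0.85 (SE 0.607), and Exo1, a nuclease that resects ends, by 1.15 (SE 0.625).

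Of the 3 Fanconi genes, which act on DNA strands linked to each other, Fancd2 rose at day 7. Fancd2 (ENSMUSG00000034023, chromosome 6, 113531682 to 113597017, plus strand) had 0.305, 0.741 and 0.395 CPM in controls, 2.28, 2.58 and 1.56 CPM at day 7 and 0.759, 0.531 and 1.03 CPM at day 14. The lowest day 7 library lay above the highest of the other 6. The rise was 4.45-fold (log2 2.15, SE 0.508, edgeR adjusted p = 0.0037), in all 9 fits with a library left out, from 23 counts over the controls to 118 over the day 7 libraries. Fanci, the partner of FANCD2, had 1, 0 and 1 counts in controls, 8, 29 and 18 at day 7 and 1, 2 and 5 at day 14. The day 7 to control ratio was 24.4 (exact 95% interval 6.43 to 206, counting error only). With no filter on low counts Fanci could be tested and rose at day 7 (log2 4.40, SE 1.10, edgeR adjusted p = 0.000784). Fanca, a subunit of the core complex, changed by 1.10 (SE 0.448, edgeR adjusted p = 0.0686).

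Of the 4 genes of end joining 0 passed at day 7 in edgeR, also at an unadjusted p under 0.05 and with DESeq2 or limma-voom, and the median log2 was 0.15. Xrcc5, which encodes KU80, had 13.9, 13.5 and 10.7 CPM in controls, 11.3, 10.5 and 12.6 CPM at day 7 and 11.4, 13.5 and 11.3 CPM at day 14. The 3 groups overlapped, and the change was −0.15 at day 7 (SE 0.162). Xrcc6, which encodes KU70, its partner (ENSMUSG00000022471, chromosome 15, 81987835 to 82040085, plus strand), had 20.95, 21.6 and 18.6 CPM in controls, 20.2, 23.9 and 22.4 CPM at day 7 and 15.7, 17.2 and 15.4 CPM at day 14. The day 14 libraries were the lowest of the 9, and the day 7 change was 0.12 (SE 0.130). Prkdc, the DNA-dependent kinase that the KU proteins recruit, changed by 0.18 (SE 0.155) and Lig4, the ligase of this pathway, by 0.36 (SE 0.262).

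The 2 genes of single-strand break repair did not pass in edgeR, although limma-voom called Parp1 higher. Xrcc1, a scaffold for ligation, changed by −0.04 (SE 0.129) and Parp1, a sensor of nicks, by 0.24 (SE 0.110, edgeR adjusted p = 0.103). In mismatch repair, Msh6 rose and Msh3 did not pass (0.13, SE 0.149), and both encode proteins that recognise mispaired bases. Msh6 (ENSMUSG00000005370, chromosome 17, 87975062 to 87990892, plus strand) had 17.7, 13.9 and 17.1 CPM in controls, 24.2, 26.01 and 26.1 CPM at day 7 and 14.6, 16.7 and 20.1 CPM at day 14. The day 7 libraries were tightly grouped above the other 6. Msh6 rose 1.56-fold at day 7 (log2 0.65, SE 0.145, edgeR adjusted p = 0.0025), in all 9 fits with a library left out.

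Of the 4 nucleotide excision repair genes 0 passed at day 7 in edgeR, also at an unadjusted p under 0.05 and with DESeq2 or limma-voom, with a median log2 of 0.18. Ddb2, a sensor of ultraviolet lesions, had 9.50, 9.16 and 11.7 CPM in controls, 10.8, 12.1 and 13.3 CPM at day 7 and 10.8, 9.39 and 12.6 CPM at day 14. The groups overlapped, with a day 7 change of 0.25 (SE 0.172, edgeR adjusted p = 0.283). Xpc, which recognises distorted DNA, changed by 0.17 (SE 0.123). The nuclease genes Ercc1 and Ercc5 changed by −0.09 (SE 0.183) and 0.19 (SE 0.136).

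Both translesion polymerases rose at day 7. Polk, which encodes polymerase kappa (ENSMUSG00000021668, chromosome 13, 96480690 to 96542579, minus strand), had 2.98, 2.76 and 3.90 CPM in controls, 8.03, 7.96 and 6.82 CPM at day 7 and 3.74, 5.36 and 4.71 CPM at day 14. The day 7 libraries lay above all others. Polk rose 2.35-fold (log2 1.24, SE 0.239, edgeR adjusted p = 8e-04), in all 9 fits with a library left out. Polh, which encodes polymerase eta (ENSMUSG00000023953, chromosome 17, 46171355 to 46202645, minus strand), had 7.61, 5.32 and 8.64 CPM in controls, 11.2, 11.7 and 10.5 CPM at day 7 and 6.36, 7.69 and 4.60 CPM at day 14. Its day 7 libraries were again the highest, and day 14 overlapped the controls. The rise of 1.54-fold (log2 0.62, SE 0.215, edgeR adjusted p = 0.0335) did not pass when control library 1, control library 2 or any 1 of the day 7 libraries was omitted (log2 0.44 to 0.76, highest adjusted p = 0.167). Neither did it pass after the correction (corrected log2 0.43, edgeR adjusted p = 0.152).

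**Figure D2:**
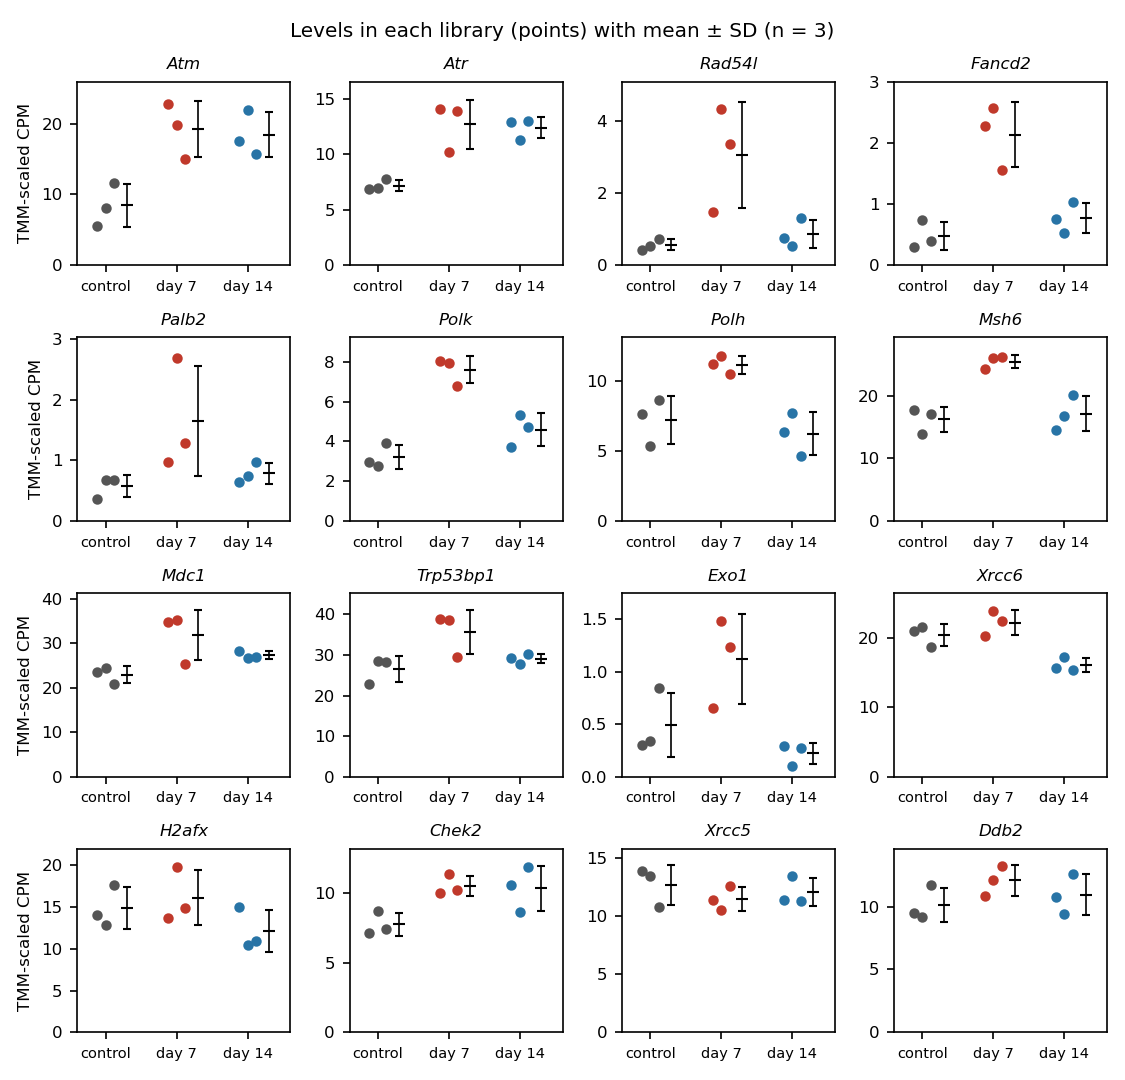
Level of 16 members in each library, in TMM-scaled CPM with axes from 0, for control (grey), day 7 (red) and day 14 (blue); bars are mean ± SD of 3 libraries. Atm and Atr are high at both times, Rad54l, Fancd2, Polk, Polh and Msh6 are highest at day 7, and the H2afx, Xrcc5 and Ddb2 groups overlap.

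At day 14 against control, 2 of the 33 members rose and none fell, against 1.13% of genes tested higher and 0.632% lower. At an unadjusted p under 0.05, 4 members were higher and 1 lower, and DESeq2 and limma-voom each called 2 higher and 0 lower. Both genes that rose were kinases, Atm and Atr. Atm was 2.18-fold higher than control (log2 1.12, SE 0.230, edgeR adjusted p = 0.0323) and Atr 1.73-fold (log2 0.79, SE 0.174, edgeR adjusted p = 0.0335). Neither passed when control library 1, control library 2 or any 1 of the day 14 libraries was omitted, where the highest adjusted p was 0.122 for Atm and 0.132 for Atr. Over all 9 omissions the log2 change ran from 0.88 to 1.40 for Atm and from 0.74 to 0.83 for Atr. After the correction Atr was at 0.39 (edgeR adjusted p = 0.259) and no longer passed. For 5 members (15.2%) all day 14 libraries lay above all controls, as did 12.4% of genes tested, and the 5 were Atm, Atr, Brca2, Mdc1 and Nbn. For 2 members, Exo1 and Xrcc6, all day 14 libraries lay below all controls, and the share of all genes that did so was not counted. The median change of the 32 members was 0.12, where that of all genes was 0.01. Both comparisons use the same 3 controls, so they are not independent.

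The direct comparison of day 14 with day 7 asked which members came down between the times. Of the 33 members 5 were lower at day 14 and none higher, against 2.87% of genes tested lower and 3.72% higher. At an unadjusted p under 0.05, 13 were lower and 0 higher, and DESeq2 and limma-voom called 6 and 8 lower and 0 higher. For 13 members every day 14 library lay below every day 7 library, as did 13.5% of genes tested. The median change of the 32 members was −0.25 and that of all genes 0.00, with 28 of the 32 negative. The count of 5 dropped to 0 when day 7 library 2 or 3 was omitted, to 1 on omission of day 7 library 1, day 14 library 1 or day 14 library 2, and to 2 on omission of day 14 library 3.

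The 5 genes that came down belong to several pathways. Rad54l was 3.53-fold lower at day 14 than at day 7 (log2 −1.82, SE 0.480, edgeR adjusted p = 0.0291). Msh6 was 1.49-fold lower (log2 −0.57, SE 0.144, edgeR adjusted p = 0.023) and Polh 1.79-fold lower (log2 −0.84, SE 0.216, edgeR adjusted p = 0.0257). These 3 had risen at day 7. The others, Exo1 and Xrcc6, had not passed at day 7. Exo1 (ENSMUSG00000039748, chromosome 1, 175880581 to 175913489, plus strand) had 0.305, 0.337 and 0.847 CPM in controls, 0.651, 1.48 and 1.23 CPM at day 7 and 0.292, 0.106 and 0.271 CPM at day 14. It held 12 counts over the 3 day 14 libraries against 62 at day 7, and was 4.94-fold lower (log2 −2.31, SE 0.681, edgeR adjusted p = 0.0479). Its counts were 5, 5 and 15 in controls, 12, 27 and 23 at day 7 and 5, 2 and 5 at day 14. Exo1 thus passed the filter on low counts only through day 7, the group where it was high. With no filter it was also lower (log2 −2.30, edgeR adjusted p = 0.0452). Xrcc6 was 1.38-fold lower (log2 −0.46, SE 0.131, edgeR adjusted p = 0.0394). Without single libraries the highest adjusted p was 0.178 for Rad54l, 0.123 for Msh6, 0.104 for Polh, 0.199 for Exo1 and 0.173 for Xrcc6. Atm changed by −0.06 between the times (SE 0.219, 95% interval −0.53 to 0.41) and Atr by −0.04 (SE 0.168, 95% interval −0.39 to 0.32).

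**Figure D3:**
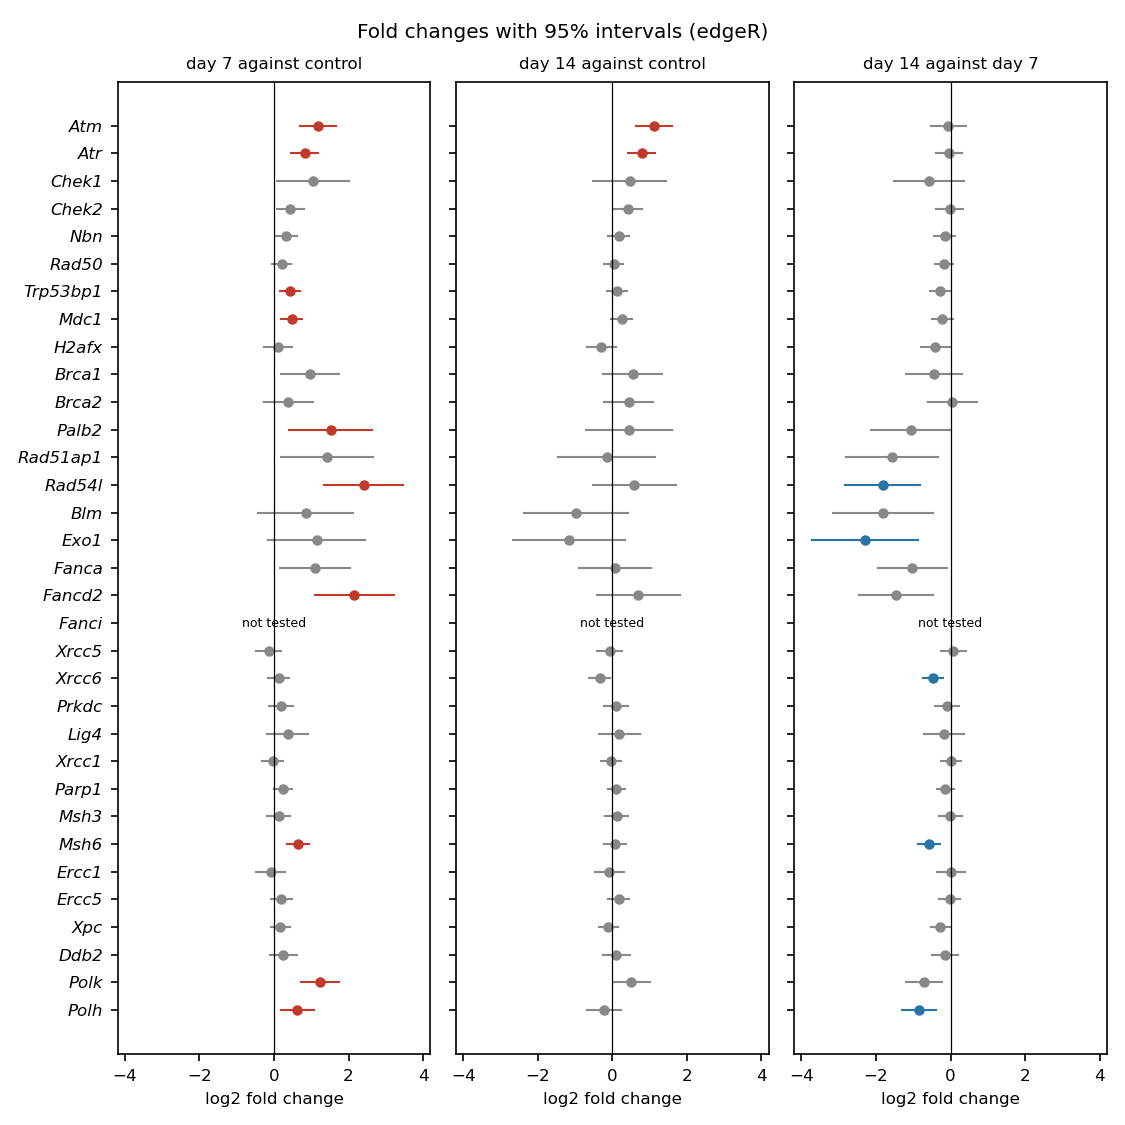
Log2 fold change of each member (rows) with its 95% interval from edgeR in the 3 comparisons (panels). Red marks genes that rose, blue genes that fell and grey those not past the threshold; 10 are red at day 7, 2 at day 14, and 5 are blue at day 14 against day 7.

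The members grouped here as replication-coupled had a larger median change than the others at day 7 and between the times. These 12 are Brca1, Brca2, Rad51ap1, Rad54l, Fanca, Fancd2, Fanci, Blm, Exo1, Chek1, Msh6 and H2afx. Of the 11 tested, 3 rose at day 7 (Rad54l, Fancd2 and Msh6) with a median log2 of 1.05, 0 passed at day 14 by edgeR, DESeq2, limma-voom or an unadjusted p under 0.05 (median 0.08), and 3 were lower at day 14 than at day 7 (median −1.03). Of the other 21 members, 7 rose at day 7 with a median of 0.25, 2 at day 14 (0.12), and 2 were lower at day 14 than at day 7 (−0.14). Of all genes tested, 15.8% rose at day 7, 1.13% rose at day 14 and 2.87% were lower at day 14 than at day 7. By these calls the share that rose at day 7 was not larger in the replication-coupled class, where changes ran from 0.12 in H2afx to 2.41 in Rad54l. After the length and GC correction 3 of the 11 and 2 of the other 21 rose at day 7. At an unadjusted p under 0.05 without the correction, 7 of the 11 and 10 of the 21 were higher. In both of these counts the share was larger in the replication-coupled class. Between the times the share that was lower was larger in that class, whose 3 include Exo1, which passed the filter only through day 7. The difference between the classes was not tested.

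Proliferation genes moved with the first class. Of 30 such genes (cyclins, mitotic kinases, MCM helicase subunits and the like) 25 rose at day 7, 0 passed in edgeR at day 14 (7 at an unadjusted p under 0.05, 1 with DESeq2 and 0 with limma-voom), and 18 were lower at day 14 than at day 7, with medians of 2.30, 0.31 and −1.79. Their summed level was 109 to 129 CPM in controls, 235 to 342 CPM at day 7 and 119 to 145 CPM at day 14. Mki67, the Ki-67 antigen gene of cycling cells, had 1.83, 3.10 and 3.45 CPM in controls, 27.2, 39.7 and 29.1 CPM at day 7 and 9.40, 3.61 and 8.44 CPM at day 14. Within day 7, library 2 was highest in Mki67 and in 8 of the 12 (Rad54l, Fancd2, Fanci, Exo1, Fanca, Brca1, Brca2 and H2afx), whereas library 3 was highest in Rad51ap1, Blm and Msh6 and library 1 in Chek1. The summed level of the 12 replication-coupled members was 40.3, 37.4 and 44.0 CPM in controls, 56.3, 72.9 and 63.0 CPM at day 7 and 43.9, 34.5 and 43.8 CPM at day 14. Day 7 library 2 was highest in this sum and day 14 library 2 lowest, and the same held within their groups for the summed proliferation genes. The part of cycling cells in these changes was not tested.

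**Figure D4:**
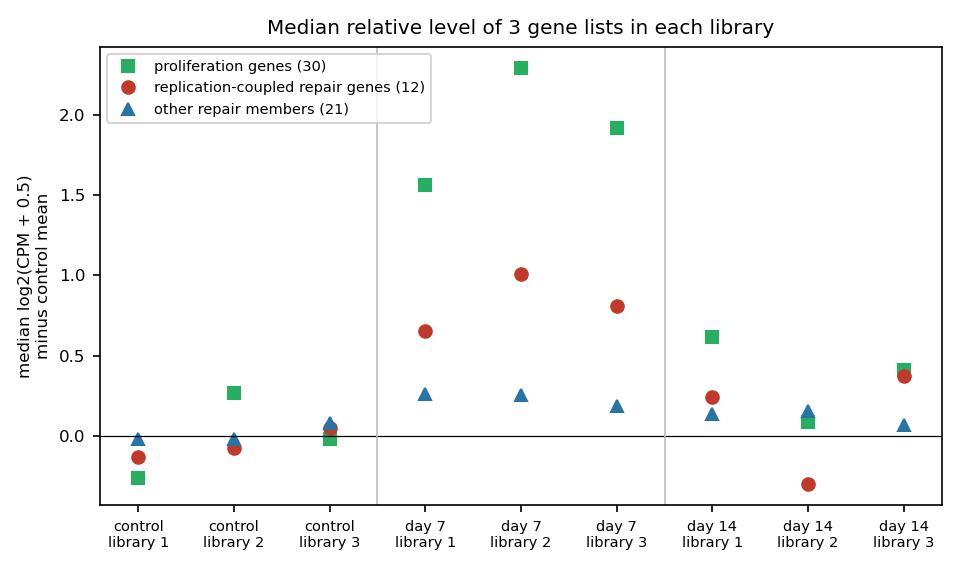
Median over each gene list of log2(CPM + 0.5) minus the control mean, per library, for 30 proliferation genes (squares), the 12 replication-coupled members (circles) and the 21 other members (triangles). At day 7 the medians are 1.56, 2.29 and 1.92 for proliferation genes, 0.65, 1.00 and 0.81 for replication-coupled members and 0.26, 0.26 and 0.19 for the others.

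Targets of p53 were read beside the set, since p53 is activated by the damage kinases. Cdkn1a, the p53 target that encodes the cell cycle inhibitor p21, had 5.30, 5.997 and 5.71 CPM in controls, 13.1, 13.6 and 15.1 CPM at day 7 and 16.4, 12.7 and 18.8 CPM at day 14. Like Atm and Atr, it was high in all 6 irradiated libraries. It rose by 1.30 at day 7 (SE 0.176, edgeR adjusted p = 4.88e-05) and 1.49 at day 14 (SE 0.175, edgeR adjusted p = 0.000905). Of the 4 members known as p53 targets in mouse or human, Polk and Polh rose at day 7, and Ddb2 and Xpc did not pass. At day 14, 0 of the 4 passed in edgeR, DESeq2 or limma-voom and 1 was higher at an unadjusted p under 0.05, with a median log2 of 0.00. Of 24 other p53 targets 10 rose and 1 fell at day 7, and 4 rose and 1 fell at day 14.

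Fold changes moved with gene length across the whole table. The Spearman correlation of the log2 change with exonic length, over genes that are not independent replicates, was 0.423 at day 7, 0.336 at day 14 and −0.283 for day 14 against day 7. At day 7 the median ran from −0.37 in the lowest decile of length to 0.38 in the highest. The members are long genes, with a median exonic length of 5831 bases where genes tested had 4113, and 27 of 33 were longer than that. The 10 that rose had a median of 7564 bases.

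Each comparison was therefore repeated with every library corrected for length and GC content. After the correction 5 members rose at day 7, Atm, Fancd2, Msh6, Polk and Rad54l, where 7.43% of genes did. Atm had a corrected log2 of 0.73 (SE 0.177, edgeR adjusted p = 0.0046), Fancd2 of 1.84 (SE 0.515, edgeR adjusted p = 0.0117) and Msh6 of 0.58 (SE 0.140, edgeR adjusted p = 0.0043). Polk had 0.88 (SE 0.233, edgeR adjusted p = 0.0079) and Rad54l 2.16 (SE 0.503, edgeR adjusted p = 0.0032). The 5 that lost the call were Atr, Mdc1, Palb2, Polh and Trp53bp1. Atr and Trp53bp1 are among the longest members, with 23629 and 14164 exonic bases.

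At day 14 the corrected call remained for Atm (log2 0.83, SE 0.178, edgeR adjusted p = 0.0268) and not for Atr, where 0.397% of genes rose. Between day 14 and day 7, Msh6, Polh and Rad54l stayed lower, where 2.27% of genes did, and Exo1 (−2.20, edgeR adjusted p = 0.0568) and Xrcc6 (−0.42, edgeR adjusted p = 0.0548) just missed. The median of the 32 members became 0.28 at day 7, 0.03 at day 14 and −0.20 between the times. Among all genes, the share of calls that were higher went from 51.6% to 33.9% at day 7, from 64.1% to 41.2% at day 14 and from 56.5% to 61.9% for day 14 against day 7.

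**Figure D5:**
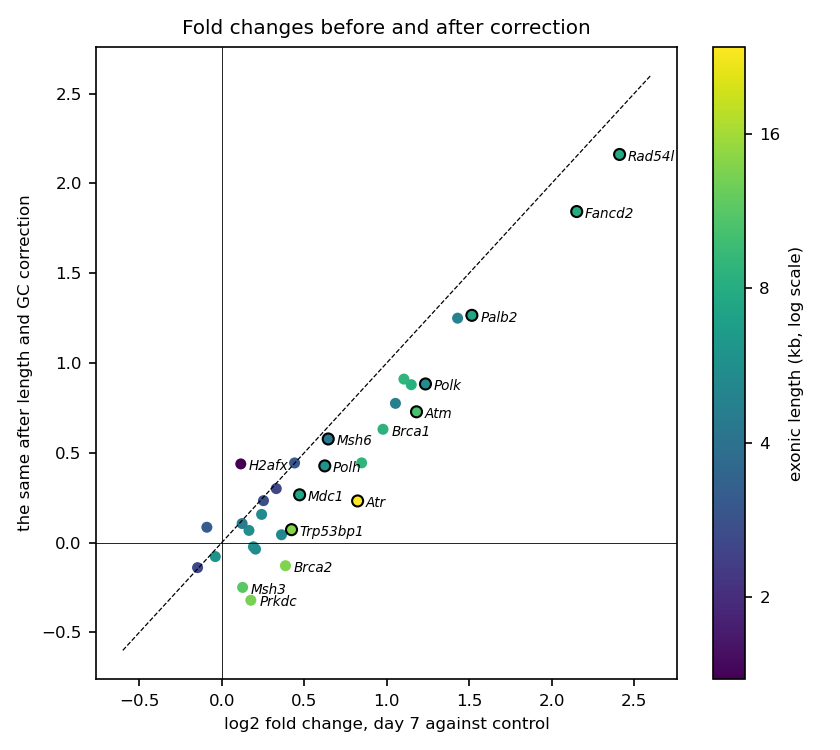
Log2 fold change at day 7 of the 32 tested members before (x axis) and after (y axis) the length and GC correction; the dashed line marks equal values, colour is exonic length in kilobases on a log scale, and black rings mark the 10 genes that rose before correction. Rad54l goes from 2.41 to 2.16 and Fancd2 from 2.15 to 1.84. Atr goes from 0.82 to 0.23 and Trp53bp1 from 0.42 to 0.07.

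The wider repair pathways were read from a list of 131 other genes, of which 129 were matched by symbol and tested. At day 7, 27 rose (20.9%), 13 fell (10.1%) and 89 did not pass, where 15.8% of all genes rose and 14.8% fell. The median log2 was 0.11. With each library left out the count that rose was 18 to 27 and the count that fell 5 to 18, the 5 on omission of control library 1 or day 7 library 1. The 18 came on omission of control library 1, control library 2 or day 7 library 1. After the length and GC correction 12 rose and 12 fell (9.3% each). In that fit 7.43% of all genes rose and a larger share fell, 2223 of 15348. The genes that rose had a median exonic length of 6649 bases and those that fell of 3250 bases.

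By pathway, the day 7 calls were as follows, and differences between pathways were not tested. Of 18 further checkpoint genes 7 rose (Topbp1, Clspn, Wee1, Paxip1, Usp28, Etaa1 and Bclaf1) and Cdc25a fell. Of 28 recombination genes 4 rose (among them Rad54l2, Mms22l and Wrn), and of 14 Fanconi genes 4 rose (Brip1, Fan1, Usp1 and Wdr48). Of 10 translesion genes 4 rose (Rev1, Rad18, Hltf and Shprh) and 2 fell (Ube2b and Ube2n). In end joining 1 of 12 rose (Dclre1c) and 5 fell (among them Poll, Paxx, Mad2l2 and Shld1). Of 21 genes of base excision and single-strand repair 4 rose (Neil3, Fen1, Lig3 and Tdp2) and 2 fell (Ung and Polb). Of 19 excision repair genes 2 rose and 3 fell, and of 7 mismatch repair genes Mlh3 rose. After the length and GC correction 3 checkpoint genes rose and 3 fell, 3 recombination genes rose, 1 Fanconi gene rose and 1 fell, and 2 translesion genes rose and 2 fell. In the same fit 3 genes of base excision and single-strand repair rose and 2 fell, and 4 excision repair genes fell. The corrected edgeR fit called 0 genes of end joining (3 lower at an unadjusted p under 0.05) and 0 of mismatch repair (1 lower). Apart from the 6 described next, these names were picked with their values in view.

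Polb, the main polymerase of base excision repair, had 33.4, 34.0 and 33.3 CPM in controls, 15.7, 17.3 and 19.2 CPM at day 7 and 24.8, 29.4 and 29.6 CPM at day 14. The groups did not overlap, and day 14 lay between the other groups. It fell by 0.94 on the log2 scale at day 7 (SE 0.124, edgeR adjusted p = 4.09e-05) and was higher at day 14 than at day 7 (0.68, edgeR adjusted p = 0.00313). Rev1, a translesion polymerase and scaffold, had 4.87, 4.11 and 7.01 CPM in controls, 15.9, 12.02 and 14.6 CPM at day 7 and 9.10, 8.91 and 10.7 CPM at day 14. It rose by 1.40 at day 7 (SE 0.203, edgeR adjusted p = 7.99e-05) and 0.84 at day 14 (edgeR adjusted p = 0.0415), again with no overlap of irradiated libraries with controls.

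Clspn, which encodes claspin, the adaptor between ATR and CHK1, had 0.122, 0.337 and 0.113 CPM in controls, 1.19, 4.34 and 3.33 CPM at day 7 and 1.11, 0.212 and 0.325 CPM at day 14. It held 2, 5 and 2 counts in controls and 19, 4 and 6 at day 14, and so passed the filter only through day 7. It rose by 3.94 at day 7 (SE 0.707, edgeR adjusted p = 0.000479) and was lower at day 14 than at day 7 (−2.43, edgeR adjusted p = 0.0228), with the same high library 2 at day 7 as Rad54l. Hltf, a translocase that helps bypass lesions, rose by 0.60 at day 7 (edgeR adjusted p = 0.000797) and 0.48 at day 14 (edgeR adjusted p = 0.039). Bclaf1, which acts in RNA processing after damage, rose by 0.59 at day 7 (edgeR adjusted p = 0.003) and Usp1, which removes ubiquitin from FANCD2, by 0.45 (edgeR adjusted p = 0.0187), and at day 14 neither passed (0.44 and 0.45). After the correction the day 7 values were 0.19 for Hltf, 0.01 for Bclaf1 and 0.32 for Usp1, none past the threshold.

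At day 14, Rev1 and Hltf were the 2 of the 129 genes that rose in edgeR (5 with DESeq2, 4 with limma-voom), and 0 fell with any of these tools, where 5 were lower and 19 higher at an unadjusted p under 0.05. The 2 were 1.55% of the list, where 1.13% of all genes tested rose. The count that rose was 0 to 12 with each library left out, 12 on omission of control library 3 and 0 on omission of control library 1, control library 2, day 7 library 2, day 7 library 3 or any 1 of the day 14 libraries. It was also 0 after the correction. Between day 14 and day 7, Polb and Cetn2 were higher, and 3 genes, Clspn and Wee1 among them, were lower. That is 1.55% higher and 2.33% lower, where 3.72% of all genes tested were higher and 2.87% lower.

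Reads were counted with no stated strand setting, and 14 of the 33 members share exon sequence with a gene on the opposite strand. Among those that rose or fell, the partners are 1700065D16Rik and Gm16794 for Atr, Fancd2os for Fancd2, Fbxo11 for Msh6, Gm16326 for Palb2, Lrrc41 for Rad54l, Tubgcp4 for Trp53bp1 and Desi1 for Xrcc6. Without strand, reads of such a pair cannot be told apart.

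Markers of the gland's cell types moved too. The 12 acinar markers, led by Muc19 and the Dcpp genes whose near-identical copies make counts uncertain, summed to 206360 to 293578 CPM in controls, 158358 to 166999 CPM at day 7 and 201883 to 207311 CPM at day 14, and 8 of the 12 fell at day 7. Control library 3 was the lowest control in this sum. Of 12 duct markers 3 rose and 5 fell at day 7, with sums of 6908 to 8433 CPM in controls and 3993 to 4628 CPM at day 7. Among 8 genes each, 3 myoepithelial and basal, 3 fibroblast and 2 endothelial markers rose, and 3 macrophage markers fell. Of all genes tested, 15.8% rose and 14.8% fell at day 7. Of 8 plasma cell markers 6 were tested and 2 fell, Mzb1 and Ighm, with sums of 1647 to 2141 CPM in controls, 1310 to 1369 CPM at day 7 and 1281 to 1935 CPM at day 14. After the length and GC correction 7 acinar and 3 duct markers fell and 1 duct marker rose at day 7. In that fit 3 myoepithelial and basal and 2 fibroblast markers rose, and 1 fibroblast and 1 macrophage marker fell. It called 0 endothelial and 0 plasma cell markers, where 2 endothelial were higher and 2 plasma cell lower at an unadjusted p under 0.05. Of all genes, 7.43% rose and 2223 of 15348 fell in it. Macrophage markers summed to 144 to 166 CPM in controls, 88.7 to 129 CPM at day 7 and 184 to 233 CPM at day 14. T and NK cell markers summed to at most 5.37 CPM and B and germinal centre markers, from cells that also divide, to at most 1.98 CPM in any library, with no B marker past the filter. No list had a gene at 0 in all libraries. The part of cell composition in the members' changes was not tested.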

How the data were processed

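The submitters' processing notes name STAR, featureCounts, DESeq2 and the build mm10. Tool versions, the gene annotation and the strand setting were not given in the sources used here. The authors deposited whole-number counts per gene for each of the 9 libraries, without normalization. Identifiers were matched to GENCODE M21 (GRCm38, which is mm10; 54409 of 54532 matched), and coordinates count from 1.

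Tests on the counts used edgeR 4.0.16 under R 4.3.3 (filterByExpr, 15348 genes kept and 39184 removed; TMM; robust quasi-likelihood F test, two-sided; 3 groups, 9 libraries, 6 residual degrees of freedom; biological coefficient of variation 16.1%). Adjusted p-values are Benjamini-Hochberg over all genes tested. An adjusted p in the text is edgeR's in this fit unless another setting is named. No pair of libraries within a group agreed within sampling noise (chi-square over degrees of freedom 9.927 to 137.595). The highest values were those of control library 3, at 137.595 with control library 1 and 96.174 with control library 2. Control libraries 1 and 2 gave 15.865, and pairs in the irradiated groups at most 31.316. Intervals and floors from counts cover counting error only, since PCR reads are not independent molecules. The length and GC correction added to each library an offset from natural splines (5 degrees of freedom each) on log2 exonic length and on GC content. Scripts were tested on simulated data.

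Alternatives were an adjusted p under 0.01, DESeq2 size factors, no filter, scaling with the 20 most abundant genes left out, the Wald test of DESeq2 1.42.0, a minimum of 1 CPM in 3 libraries, limma-voom (3.58.1) with sample weights, the replicate number as a block with and without the correction, the correction alone, only the 6 libraries compared, and each library left out.

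Members, lists, tests and the rule for named genes were chosen with earlier results of these data known. By that rule all 33 members are named, with every library's value for those past the threshold against control and for Chek2, H2afx, Trp53bp1, Xrcc5, Xrcc6 and Ddb2. It also takes, from the wider repair list, the 4 genes of smallest p at day 7 and the 4 at day 14, with Mki67 and Cdkn1a as references. Other names were chosen after their values were seen. Some genes of the wider list are counted but not reported by name. Skeletal muscle and adipocyte markers summed to at most 7.74 and 116 CPM. Promoters were not used for H2afx, Ddb2, Xpc, Prkdc, Rad50, Nbn, Fancd2 and Exo1.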

Additional observations from a re-analysis of the deposited data

Results flagged for a closer look

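For 5 members the effect of irradiation against the same controls differed between day 14 and day 7, by the direct edgeR test of the difference between the times. The difference was −2.31 on the log2 scale for Exo1, −0.57 for Msh6, −0.84 for Polh, −1.82 for Rad54l and −0.46 for Xrcc6, lower at day 14 in each case. For all 5 the lowest day 7 library lay above the highest day 14 library. Rad54l, Msh6 and Polh had risen at day 7 and did not pass at day 14. Exo1 and Xrcc6 did not pass against control at either time, so that their differences rest on the direct comparison. Exo1 also passed the filter on low counts only through its day 7 libraries. Each of the 5 calls was lost in at least 4 of the 9 fits with a library left out.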

How the results depend on the processing

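Over all members, comparisons and settings, 1820 values were compared with those reported: none of the called values changed sign, 74 were no longer past the threshold, 25 came to pass it, and 99 small uncalled values changed sign (at most 0.39 on the log2 scale). Members higher at day 7 numbered 10, and 6 at an adjusted p under 0.01, 5 after the length and GC correction, 5 with the correction and the replicate block, and 6 to 12 with a library left out. The genes called at day 7 numbered 2631 at an adjusted p under 0.01 and 3106 to 5314 with a library left out. Members higher at day 14 numbered 2, and 0 at an adjusted p under 0.01, 1 with the correction, 1 with the replicate block, 1 with both, and 0 to 2 with a library left out. The genes called at day 14 were 270 in the reported fit, 11 at an adjusted p under 0.01, 1300 with no filter, 1042 with DESeq2, 631 with limma-voom, 113 with the replicate block, 124 with block and correction, 148 with the correction, 157 with only the 6 libraries compared, and 13 to 1939 with a library left out. The 1939 came on omission of control library 3 and the 13 on omission of control library 1. Members lower at day 14 than at day 7 numbered 5, and 0 at an adjusted p under 0.01, 8 with limma-voom, 3 with the correction, 3 with the replicate block, 3 with both, and 0 to 7 with a library left out. The genes called there numbered 264 at an adjusted p under 0.01, 1539 with limma-voom, and 330 to 1415 with a library left out. The cause was not tested, apart from the stricter threshold and the smaller number of samples, which act by construction. The replicate numbers did not pair the libraries (correlations of same-numbered deviations −0.113 to 0.028), and the replicate block left 10 members higher at day 7. Depth limits the low members most: Fanci had 2 counts over the 3 controls, and Exo1 had 12 over the 3 day 14 libraries.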
